A study of Rattus norvegicus with 10 samples.

Results

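The genes described here are the enzymes of serine synthesis and of the folate one-carbon pathway, chosen by name: Phgdh, Psat1, Psph, Shmt1, Shmt2, Mthfd1, Mthfd2, Mthfd1l, Aldh1l2 and Aldh18a1. The choice was made with earlier results of these data known. A gene was included where the platform annotation gave its symbol to a probeset. That held for 9 of the 10, with 1 probeset each, of 15037 named genes on the array. Shmt1, the cytosolic serine hydroxymethyltransferase, had no named probeset and is not analysed here. RNA was measured on 10 arrays of cells of the nucleus pulposus, which fills the centre of the intervertebral disc, from male Sprague Dawley rats of 3 to 4 months and 300 gram. In the ShBNIP3 group (5 arrays, numbered 6 to 10) the cells had received lentiviral particles with a short hairpin RNA against Bnip3, and in the ShCtrl group (5 arrays, numbered 1 to 5) a control hairpin in the pLKO.1 vector. Both groups were therefore transduced cells, and RNA was taken after 4 days. The labels call the hairpins only ShBNIP3 and ShCtrl and name neither separate cultures nor separate animals. The p-values therefore cover only how far these samples spread, and that spread may be technical.

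Serine is made from the glycolytic intermediate phosphoglycerate by Phgdh, Psat1 and Psph in sequence. In mitochondria Shmt2 splits serine into glycine and a one-carbon unit bound to tetrahydrofolate, Mthfd2 oxidises this unit, and Mthfd1l releases it as formate, which Mthfd1 takes up again in the cytosol for purine, thymidylate and methyl group synthesis. Aldh1l2 instead oxidises the formyl unit to CO2 in mitochondria and yields NADPH. Aldh18a1 catalyses the first steps of proline synthesis from glutamate in mitochondria and is not itself a folate enzyme. In many mammalian cells the genes of this pathway are known targets of ATF4, which drives the integrated stress response, and several are known targets of MYC. Bnip3, the gene knocked down, encodes a mitochondrial outer membrane receptor with a part in mitophagy, the removal of mitochondria by autophagy.

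The RefSeq promoter table (assembly GRCr8, 250 bases before to 50 bases after each start) held an entry for 6 of the 9 measured genes: Phgdh, Psat1, Psph, Shmt2, Mthfd2 and Mthfd1l. Each window was searched on both strands for TGATGNAA, the composite site bound by ATF4 with C/EBP factors, and for CACGTG, the E-box bound by MYC and other factors. A match to TGATGNAA was in 0 of the 6 windows and in 3.98% of all 33469 promoters. A match to CACGTG was in 0 of the 6 and in 6.42% of all promoters. The letters CCAAT, a search added after the windows had been read, were in 3 of the 6 (Phgdh, Psat1 and Mthfd2) and in 37.5% of all promoters. A match describes letters and not a bound site, and no match says only that these letters are not in this window. The 250 bases before the start are shown for 3 genes that the results below turn on: Shmt2, the member with the smallest p-value, without a match; Mthfd2, with the most CCAAT matches; and Psat1 of the serine arm. Capitals mark CCAAT or its reverse complement ATTGG, which lay 97, 48 and 23 bases before the start in Mthfd2 and 155 and 125 bases before it in Psat1.
Shmt2, chr7:65249568-65249817, minus strand: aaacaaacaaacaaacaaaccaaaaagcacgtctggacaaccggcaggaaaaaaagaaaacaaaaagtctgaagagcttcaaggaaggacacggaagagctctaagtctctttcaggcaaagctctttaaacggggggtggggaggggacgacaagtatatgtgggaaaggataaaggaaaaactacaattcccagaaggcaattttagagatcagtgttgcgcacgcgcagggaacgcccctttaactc
Mthfd2, chr4:117380351-117380600, minus strand: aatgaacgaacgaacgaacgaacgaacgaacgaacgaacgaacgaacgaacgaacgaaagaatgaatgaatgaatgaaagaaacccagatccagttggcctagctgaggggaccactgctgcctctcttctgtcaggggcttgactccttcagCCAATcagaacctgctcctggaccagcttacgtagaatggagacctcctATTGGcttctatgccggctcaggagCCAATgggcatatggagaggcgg
Psat1, chr1:222645409-222645658, minus strand: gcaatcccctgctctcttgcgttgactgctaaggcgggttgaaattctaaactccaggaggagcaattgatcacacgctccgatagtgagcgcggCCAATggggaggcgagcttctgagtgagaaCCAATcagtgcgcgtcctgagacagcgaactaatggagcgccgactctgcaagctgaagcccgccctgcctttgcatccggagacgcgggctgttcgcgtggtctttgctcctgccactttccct

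Among the serine and glycine carriers described below, 2 of the 9 with an entry in the table held TGATGNAA. They are printed because they hold these letters, with the match or its reverse complement in capitals. With 3.98% of all promoters matching, 0 of the 6 member windows is not read as a difference from the carriers. The same letters were in the windows of Pycr1, Nupr1 and Trib3 among the other gene lists. The match lay 235 bases before the start in Slc1a4 and 142 bases before it in Slc38a1. Slc1a4 also held CACGTG, 20 bases before its start, and matches to CACGTG are not counted here over the carriers.
Slc1a4, chr14:98761784-98761803, minus strand: ccagcgTTGCATCAtccagc
Slc38a1, chr7:129681530-129681549, minus strand: aaactcTGATGCAAccaacc

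The deposited values are log2 expression values, and differences are ShBNIP3 minus ShCtrl from limma, with p-values adjusted by Benjamini-Hochberg over 23188 probesets and a threshold of 0.05. The targeted gene Bnip3 had log2 values of 11.14, 11.26, 10.59, 11.31 and 12.68 on the ShBNIP3 arrays, against 14.29, 14.29, 13.94, 15.97 and 14.54 on the ShCtrl arrays. The groups did not overlap, and the ShBNIP3 level was 10.8% of the ShCtrl level (log2 difference -3.21, SE 0.40, limma adjusted p = 0.00020; exact two-sided permutation p = 0.0079, the smallest that 5 against 5 allows). ShBNIP3 array 10 and ShCtrl array 4 stood apart from the others, with mean correlations of 0.986 and 0.983 with the rest of their groups. Both held the highest Bnip3 value of their group, and results are also given without these arrays where that moves a call, a direction or a value. Of the nucleus pulposus markers, Tbxt, Shh, Noto, Krt8, Krt18 and Krt19 were not above background on any array, while Acan and Col2a1 were measured.

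Of the 9 genes, 7 had lower means in ShBNIP3 cells, and 2 of them passed the test: Shmt2, which fell 1.60-fold, and Mthfd2, which fell 1.37-fold. None rose. All 9 probesets were above the array background on all 10 arrays. Over all probesets 15.5% were called, 7.87% lower and 7.61% higher, and among the 9711 probesets above background on all arrays 14.6% and 14.5%. A count of 2 of 9 is near this background, and no direction particular to these genes is read from it. The median log2 difference of the 9 genes was -0.53, against 0.02 over all probesets, 46.3% of which had a negative difference. At an unadjusted p under 0.05, 5 of the 9 were lower and 0 higher in limma, against 12.7% and 14.0% of all probesets. The groups did not overlap for 2 of the 9, against 6.29% of all probesets lower in ShBNIP3 and 6.60% higher. Unlike the 9 genes, the probesets in these shares and in those at an unadjusted p include some at background. Neither share is given for probesets above background. In RNA from whole cultures, fewer cells of a type and less RNA per cell cannot be told apart.

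**Figure D1:**
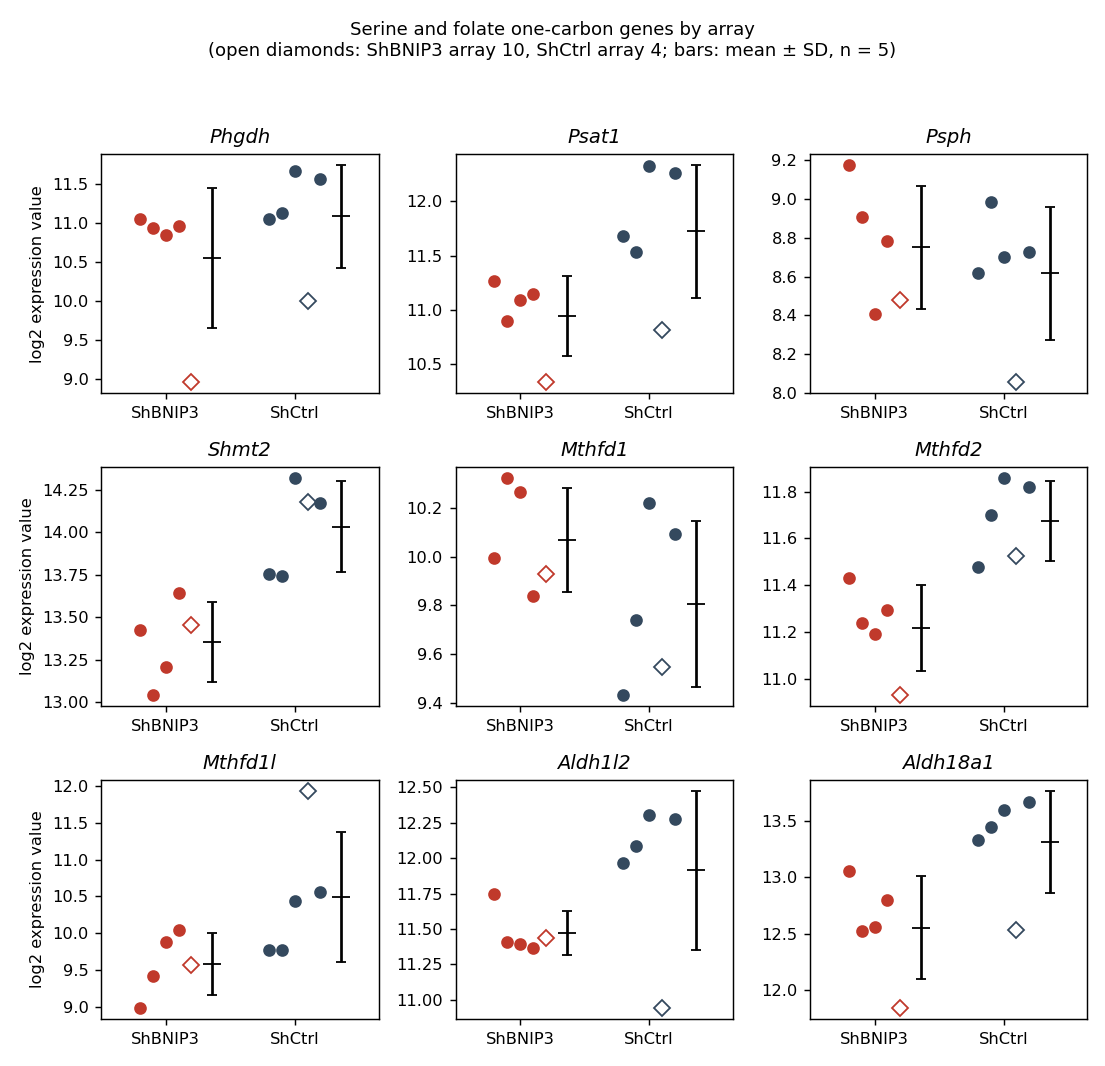
Log2 expression values of the 9 genes on each array, with the ShBNIP3 arrays (red) left and the ShCtrl arrays (dark blue) right in each panel; open diamonds are ShBNIP3 array 10 and ShCtrl array 4, and bars are the mean ± SD of 5 arrays. For Shmt2 and Mthfd2 every ShBNIP3 array lies below every ShCtrl array, and the open diamonds are the lowest points of their groups for Phgdh, Psat1 and Aldh18a1.

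The count depended on which arrays were used. Without ShBNIP3 array 10 and ShCtrl array 4, 5 of the 9 genes passed the test and all 5 were lower (Psat1, Shmt2, Mthfd2, Aldh1l2 and Aldh18a1), while 10.1% of all probesets were called lower and 9.84% higher. The median of the 9 genes was then -0.55. The same 5 passed without ShCtrl array 4 alone (9.13% of probesets lower and 7.95% higher), and Shmt2 alone passed without ShBNIP3 array 10 alone (8.03% and 8.09%). Shmt2 was also the only gene to pass without ShBNIP3 array 7 or 8 or without ShCtrl array 2, 3 or 5. With array weights 5 of the 9 were lower past the threshold (10.0% of probesets lower and 9.80% higher), among probesets above background on at least 5 arrays 4 (17.5% and 17.9%), and in the brighter 50% of probesets 3 (16.8% and 17.0%). On ShCtrl array 4 the median deviation of the 9 genes from the other 4 arrays of the group was -0.71, with 7 of 9 below, and on ShBNIP3 array 10 it was -0.34, with 8 of 9 below. With a minimum of 2-fold 0 of the 9 were called lower, against 2.74% of all probesets. Outside the fits limited to brighter probesets or those above background, these shares cover all probesets, some of them at background. They are not given for probesets above background on all arrays, as the 9 genes were.

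**Figure D2:**
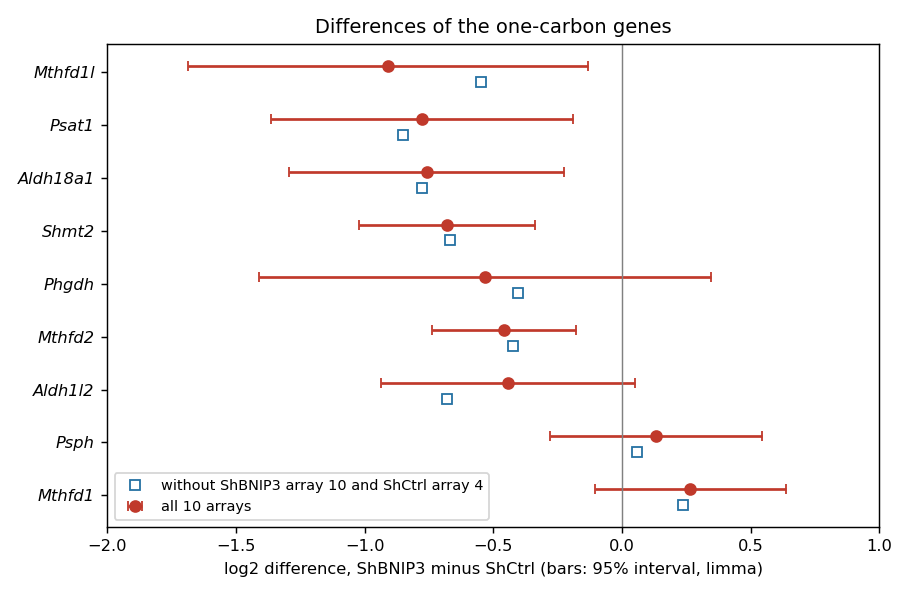
Log2 differences (ShBNIP3 minus ShCtrl, horizontal axis) of the 9 genes, ordered from the lowest, with circles and 95% limma intervals for all 10 arrays and open squares for the 8 arrays without ShBNIP3 array 10 and ShCtrl array 4. The intervals of Mthfd1l, Psat1, Aldh18a1, Shmt2 and Mthfd2 lie below 0, those of the other 4 genes include 0, and the squares of 7 genes are negative.

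The serine synthesis enzymes had differences of either sign, and none passed with all arrays. Phgdh, the dehydrogenase that commits phosphoglycerate to serine, had log2 values of 11.06, 10.95, 10.85, 10.97 and 8.96 on the ShBNIP3 arrays, against 11.06, 11.13, 11.67, 10.01 and 11.57 on the ShCtrl arrays. The groups overlapped, and the lowest value of each came from ShBNIP3 array 10 and ShCtrl array 4. The means were 10.56 ± 0.89 in ShBNIP3 and 11.09 ± 0.66 in ShCtrl cells (SD, n = 5 each), a difference of -0.53 with a 95% interval of -1.41 to 0.35 (limma adjusted p = 0.465). It was -0.40 without both arrays (limma adjusted p = 0.0940), -0.80 without ShCtrl array 4 alone and -0.13 without ShBNIP3 array 10 alone.

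Psat1, the transaminase of the second step, had log2 values of 11.27, 10.89, 11.09, 11.15 and 10.33 on the ShBNIP3 arrays, against 11.68, 11.53, 12.32, 10.82 and 12.26 on the ShCtrl arrays. Apart from ShCtrl array 4, every ShCtrl value was above every ShBNIP3 value. The difference was -0.78 (SE 0.27, 95% interval -1.37 to -0.19, limma adjusted p = 0.0749), with means of 10.94 ± 0.37 in ShBNIP3 and 11.72 ± 0.61 in ShCtrl cells. It was -1.0 without ShCtrl array 4 (limma adjusted p = 0.0071), -0.62 without ShBNIP3 array 10 (0.144) and -0.85 without both (0.0066). Psph, the phosphatase that releases serine, had log2 values of 9.18, 8.91, 8.40, 8.78 and 8.48 on the ShBNIP3 arrays, against 8.62, 8.99, 8.70, 8.05 and 8.73 on the ShCtrl arrays. These groups overlapped widely, and the difference was 0.13 (95% interval -0.28 to 0.54, limma adjusted p = 0.739). It was 0.06 without both arrays and -0.0086 without ShCtrl array 4 alone, so the sign of the Psph difference rested on that array.

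Shmt2, the mitochondrial hydroxymethyltransferase that passes the serine carbon to folate, had the smallest adjusted p of the 9 genes. Its log2 values were 13.43, 13.04, 13.21, 13.65 and 13.45 on the ShBNIP3 arrays, against 13.75, 13.75, 14.32, 14.18 and 14.17 on the ShCtrl arrays. Every ShBNIP3 value was below every ShCtrl value. Shmt2 averaged 13.35 ± 0.23 in ShBNIP3 and 14.04 ± 0.27 in ShCtrl cells, a fall of 1.60-fold (difference -0.68 on the log2 scale, SE 0.16, 95% interval -1.02 to -0.34, limma adjusted p = 0.0105). The difference was -0.67 without both arrays (limma adjusted p = 0.0181), and the gene passed in all 10 fits that lack 1 array (highest adjusted p = 0.0303).

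Mthfd2, the mitochondrial dehydrogenase and cyclohydrolase, had log2 values of 11.43, 11.24, 11.19, 11.29 and 10.93 on the ShBNIP3 arrays, against 11.48, 11.70, 11.86, 11.52 and 11.82 on the ShCtrl arrays. The groups did not overlap, but the highest ShBNIP3 value lay close to the lowest ShCtrl value. Mthfd2 averaged 11.22 ± 0.18 in ShBNIP3 and 11.68 ± 0.17 in ShCtrl cells and fell 1.37-fold (difference -0.46, SE 0.13, 95% interval -0.74 to -0.18, limma adjusted p = 0.0299). It did not pass without ShBNIP3 array 7, 8 or 10 (limma adjusted p = 0.0553, 0.0634 and 0.0578) or without ShCtrl array 2, 3 or 5 (0.0637, 0.0762 and 0.0725). Without ShBNIP3 array 10 and ShCtrl array 4 together it passed (log2 -0.42, limma adjusted p = 0.0346).

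Mthfd1l, the mitochondrial synthetase that releases formate, had the lowest difference of the 9 genes but also a wide spread. Its log2 values were 8.99, 9.43, 9.89, 10.05 and 9.57 on the ShBNIP3 arrays, against 9.77, 9.77, 10.44, 11.93 and 10.56 on the ShCtrl arrays. ShCtrl array 4 was the highest, 1.80 above the mean of the other ShCtrl arrays, where most other members were low. The difference was -0.91 (SE 0.36, 95% interval -1.69 to -0.13, limma adjusted p = 0.116), and -0.55 without both arrays (limma adjusted p = 0.164).

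Aldh1l2, the mitochondrial formyltetrahydrofolate dehydrogenase, had log2 values of 11.75, 11.41, 11.40, 11.37 and 11.44 on the ShBNIP3 arrays, against 11.96, 12.09, 12.31, 10.94 and 12.28 on the ShCtrl arrays. ShCtrl array 4 was below every other array, and the other 4 ShCtrl arrays were above every ShBNIP3 array. The difference was -0.44 (SE 0.23, 95% interval -0.94 to 0.05, limma adjusted p = 0.240) with all arrays. It was -0.69 without ShCtrl array 4 (limma adjusted p = 0.0028) and -0.68 without both (0.0040), so that 1 array decided this call.

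Mthfd1, the trifunctional cytosolic enzyme that takes up formate, had log2 values of 10.00, 10.33, 10.27, 9.84 and 9.93 on the ShBNIP3 arrays, against 9.43, 9.74, 10.22, 9.54 and 10.09 on the ShCtrl arrays. The groups overlapped, and the difference was 0.27 (95% interval -0.11 to 0.64, limma adjusted p = 0.371; 0.23 without both arrays). Aldh18a1, the proline synthesis enzyme, had log2 values of 13.06, 12.52, 12.55, 12.80 and 11.84 on the ShBNIP3 arrays, against 13.33, 13.45, 13.59, 12.53 and 13.66 on the ShCtrl arrays. Here too all ShCtrl arrays other than array 4 were above all ShBNIP3 arrays. The difference was -0.76 (SE 0.25, 95% interval -1.29 to -0.23, limma adjusted p = 0.0557), -0.95 without ShCtrl array 4 (limma adjusted p = 0.0067), -0.89 without ShBNIP3 array 6 (0.0366) and -0.78 without both arrays 10 and 4 (0.0027).

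Grouped by where the enzymes are known to work, the 5 mitochondrial genes (Shmt2, Mthfd2, Mthfd1l, Aldh1l2 and Aldh18a1) all had negative differences, with a median of -0.68. Of these 5, 2 fell, against 7.87% of all probesets and 14.6% of those above background on all arrays. A 95% interval below 0 was found for 4, against 12.7% of all probesets lower at an unadjusted p under 0.05. Shares of all probesets, here and below, include probesets at background, and the 12.7% is not given for brighter ones. Of the 4 cytosolic genes (Phgdh, Psat1, Psph and Mthfd1) 2 had negative differences (3 without ShCtrl array 4, where Psph was at -0.0086), with a median of -0.20, 0 passed the test, and 1 interval was below 0. Without ShBNIP3 array 10 and ShCtrl array 4, 4 of the 5 mitochondrial genes and 1 of the 4 cytosolic genes fell, against 10.1% of all probesets. The difference between the mitochondrial and the cytosolic genes as groups was not tested, and with so few genes these counts are descriptions. A single pair, Mthfd1l and Mthfd1, sets a measured mitochondrial member against its cytosolic relative on the same array. The log2 ratio of Mthfd1l over its cytosolic relative Mthfd1 averaged -0.48 ± 0.49 in ShBNIP3 and 0.69 ± 0.96 in ShCtrl cells (SD, n = 5 each). This shift of -1.17 had an exact two-sided permutation p of 0.0159 (0.0238 after Benjamini-Hochberg over the 3 pairs computed). Without both arrays it was -0.78, with an exact p of 0.0571.

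The partners in the other 2 pairs, Mthfd2l for Mthfd2 and Aldh1l1 for Aldh1l2, were not above background on any array. Their ratios set a member against background signal and are not read as results. They enter only the adjusted p of 0.0238 for Mthfd1l over Mthfd1, which therefore depends on them. The ratio of Shmt2 over Shmt1 is not analysed here.

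Within each group, the genes differed in how they followed each other across arrays. After each array was expressed as its deviation from its group mean, Pearson correlations over the 10 arrays had a median of 0.51 over the 36 pairs of genes, with 26 positive and 8 above 0.8. Phgdh and Aldh18a1 had r = 0.93, Psat1 and Aldh18a1 0.92, and Phgdh and Psat1 0.89. Mthfd1l ran against this pattern, with r = -0.79 to Psph and -0.78 to Aldh1l2. Over the 8 arrays without ShBNIP3 array 10 and ShCtrl array 4 the median was 0.54. Phgdh and Psat1 then had r = 0.92, Phgdh and Aldh18a1 0.66, and Psat1 and Aldh18a1 0.68. Mthfd1l had r = -0.63 to Psph and -0.07 to Aldh1l2. All pairs share arrays and normalization, and these correlations are descriptions.

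**Figure D3:**
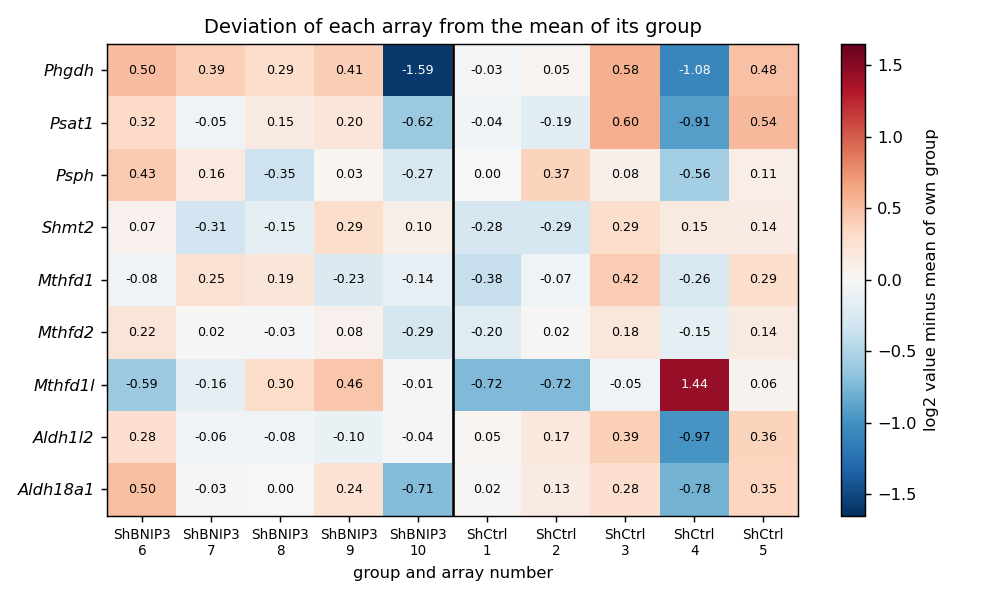
Deviation of each array from the mean of its group in log2 units (colour and printed value) for the 9 genes (rows), with the 5 ShBNIP3 arrays left of the line and the 5 ShCtrl arrays right of it. ShBNIP3 array 10 is 1.59 below its group mean for Phgdh, and on ShCtrl array 4 Phgdh, Psat1, Psph, Aldh1l2 and Aldh18a1 are low while Mthfd1l is high.

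The named genes whose deviations were most like the mean pattern of the 9 genes, of 15028 other named genes, were Tuba1b (r = 0.97 over 10 arrays, and 0.96 over the 8), Pck2 (0.97 and 0.95), Tk1 (0.97 and 0.94), Dcaf4 (0.96 and 0.88) and Tuba1c (0.95 and 0.96). Tuba1b and Tuba1c encode tubulins, Pck2 the mitochondrial phosphoenolpyruvate carboxykinase and Tk1 a thymidine kinase of dividing cells. Likeness within groups did not fix the direction between groups: Dcaf4 fell (log2 -0.62, limma adjusted p = 0.0079) and Tuba1c rose (log2 0.63, limma adjusted p = 0.0309, not passing in 7 of the 10 fits that lack 1 array, highest 0.0804). Tuba1b, Pck2 and Tk1 had differences of -0.54, -0.35 and -0.63 and did not pass with all arrays. Without ShCtrl array 4 alone Tuba1b passed (log2 -0.66, limma adjusted p = 0.0401). The transcription factor Atf4 had r = -0.40 to the mean pattern over 10 arrays and -0.04 over the 8, and Myc -0.36 and 0.47. Among genes described below, Trib3 had r = 0.68 and -0.06, Atf5 0.50 and -0.01, Ddit3 0.17 and -0.65, and Srr 0.03 and -0.49. For Slc1a4 these values were 0.73 and 0.57, and for Gart 0.78 and 0.80. Bnip3 itself had r = -0.71 over the 10 arrays and 0.06 over the 8, so its relation to the pattern rested on ShBNIP3 array 10 and ShCtrl array 4.

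Both regulators themselves fell. Atf4 had log2 values of 15.55, 15.28, 15.07, 15.42 and 15.27 on the ShBNIP3 arrays, against 16.26, 16.21, 15.91, 16.69 and 16.25 on the ShCtrl arrays. The groups did not overlap, and Atf4 was 1.92-fold lower in ShBNIP3 (log2 -0.94, SE 0.15, limma adjusted p = 0.0010). For Myc the groups were also separate. It had log2 values of 9.83, 9.41, 8.98, 9.54 and 10.30 on the ShBNIP3 arrays, against 12.41, 12.32, 12.37, 12.72 and 12.56 on the ShCtrl arrays. It was 7.28-fold lower in ShBNIP3 (log2 -2.86, SE 0.21, limma adjusted p = 2.47e-06). The falls of Atf4 and Myc passed in all 10 fits that lack 1 array.

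The regulators and the gene lists below were chosen with earlier results of these data known, so their counts are descriptions. Over all probesets 7.87% were called lower and 7.61% higher, and among those above background on all arrays 14.6% and 14.5%. Of 14 measured regulators of the integrated stress response and MYC, 5 fell and 1 rose, with a median log2 difference of -0.51. Besides Atf4 and Myc these were the pseudokinase Trib3 (log2 -2.79, limma adjusted p = 0.0155, and 0.0565 with a trended and robust variance), the stress factor Ddit3 (CHOP; log2 -2.50, limma adjusted p = 6.99e-05) and Atf5 (log2 -1.94, limma adjusted p = 0.0013). Eif2ak4, the kinase GCN2 that senses uncharged tRNA, was called higher (log2 0.52, limma adjusted p = 0.0334), but no regulator was called higher without ShBNIP3 array 6, 7 or 8 or without ShCtrl array 1, 2, 4 or 5 (limma adjusted p = 0.0537 for Eif2ak4 without ShCtrl array 4). Without ShBNIP3 array 10 and ShCtrl array 4, 7 fell and 2 rose. Whether the lower Atf4 or Myc had a part in the members' levels was not tested.

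Carriers that bring serine and related amino acids into the cell or its mitochondria fell in part. Of 10 measured serine and glycine carriers, 5 fell and 0 rose, against 7.87% of all probesets lower and 7.61% higher. The median log2 difference was -0.71. Slc1a4, the neutral amino acid exchanger ASCT1, had log2 values of 11.31, 11.32, 10.73, 11.02 and 10.94 on the ShBNIP3 arrays, against 13.35, 13.47, 13.67, 12.92 and 13.56 on the ShCtrl arrays. The groups were far apart, and Slc1a4 fell 5.02-fold (difference -2.33, SE 0.17, limma adjusted p = 2.29e-06). The sodium-coupled carriers Slc38a1 and Slc38a2 fell 2.26-fold and 1.70-fold (limma adjusted p = 0.0031 and 0.0055). Sfxn3, a sideroflexin of the family that carries serine into mitochondria, fell 2.17-fold (log2 -1.12, limma adjusted p = 0.000176). The fifth was Slc1a5, the exchanger ASCT2 (log2 -0.83, limma adjusted p = 0.0475, not passing in 8 of the 10 fits that lack 1 array, highest 0.111, and also after quantile normalization, 0.0551, or median centring, 0.0507). Sfxn1, the mitochondrial serine carrier, had a difference of 0.38 (limma adjusted p = 0.111), and 0.40 without both arrays, where it passed (0.0417). In that fit 6 carriers fell and 1 rose.

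**Figure D4:**
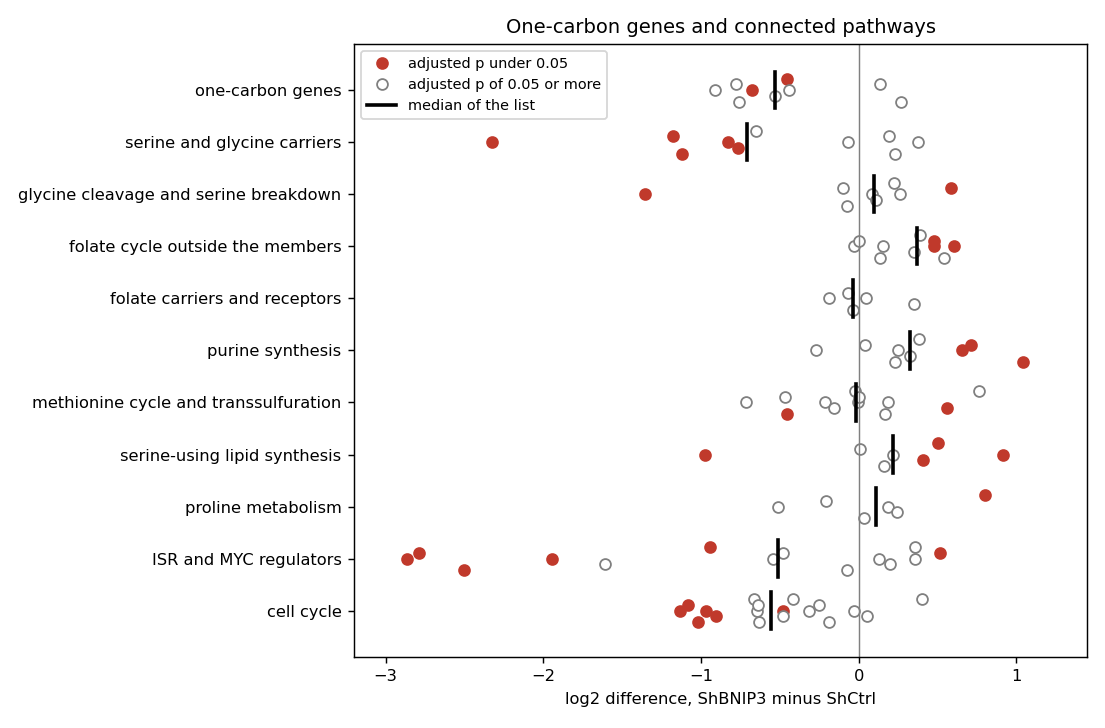
Log2 differences (ShBNIP3 minus ShCtrl, horizontal axis) of the measured genes of each list (rows), with filled points for an adjusted p under 0.05, open points for 0.05 or more, and black bars for list medians. The medians of the one-carbon genes, the serine and glycine carriers, the ISR (integrated stress response) and MYC regulators and the cell cycle genes are -0.53, -0.71, -0.51 and -0.56, and those of the other folate cycle genes and of purine synthesis are 0.37 and 0.33.

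Of the remaining genes of the folate cycle 10 were measured, and none was lower past the threshold: 3 rose and 0 fell, with a median log2 difference of 0.37 (0 to 3 rose in the fits that lack 1 array). Of all probesets 7.61% were called higher and 7.87% lower. Mtfmt, which formylates the mitochondrial initiator tRNA, rose 1.39-fold (limma adjusted p = 0.0233, over 0.05 without ShBNIP3 array 9 or ShCtrl array 2 or 5, at most 0.0629). Mtr, the methionine synthase, rose 1.39-fold (limma adjusted p = 0.0498, not passing in 8 of the 10 fits that lack 1 array, highest 0.119, and 0.0506 after median centring and 0.0568 with a trended and robust variance). Mthfd2l was called higher as well (limma adjusted p = 0.0394, not passing in 6 of the 10 fits that lack 1 array), but was not above background on any array, and no fold is given. Tyms, the thymidylate synthase, had a difference of 0.39 (limma adjusted p = 0.373). Without ShBNIP3 array 10 and ShCtrl array 4 the counts were again 3 and 0. Of 5 folate carriers and receptors 0 rose and 0 fell in limma (0 at an unadjusted p under 0.05), and the median was -0.04. Without both arrays the mitochondrial folate carrier Slc25a32 was called higher (log2 0.54, limma adjusted p = 0.0134, against 0.35 and 0.236 with all arrays).

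In purine synthesis, which takes carbons from formyl folate, 3 of 9 measured genes rose and 0 fell, against 7.61% and 7.87% of all probesets. The median log2 difference was 0.33. Gart, which carries out the first folate-dependent step, had log2 values of 9.00, 9.08, 8.82, 8.94 and 8.77 on the ShBNIP3 arrays, against 7.88, 8.04, 8.21, 6.98 and 8.29 on the ShCtrl arrays. The groups did not overlap, ShCtrl array 4 was the lowest, and Gart rose 2.06-fold (difference 1.04, SE 0.21, limma adjusted p = 0.0054; 0.85 and 0.0006 without both arrays). The phosphoribosyl pyrophosphate synthetases Prps2 and Prps1 rose 1.64-fold and 1.57-fold (limma adjusted p = 0.0103 and 0.0466). Prps1 did not pass in 7 of the 10 fits that lack 1 array (highest 0.116) or without both arrays (0.0585), where 2 genes rose and the median was 0.19.

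Of 8 genes of glycine cleavage and serine breakdown, 1 rose and 1 fell, 5 were at background on all arrays, and the median was 0.10. For this list and the next, 7.61% of all probesets were called higher and 7.87% lower. Srr, the serine racemase that makes D-serine, had log2 values of 8.95, 9.00, 8.68, 8.63 and 9.30 on the ShBNIP3 arrays, against 10.57, 10.57, 10.19, 9.61 and 10.40 on the ShCtrl arrays. These groups did not overlap, and Srr fell 2.56-fold (difference -1.36, SE 0.20, limma adjusted p = 0.00051). Dld, a subunit shared by the glycine cleavage system and other dehydrogenase complexes, rose 1.50-fold (limma adjusted p = 0.0088). Of 7 genes that use serine for lipids, 3 rose (0 to 3 in the fits that lack 1 array) and 1 fell, with a median of 0.22, and all 4 were serine incorporators, Serinc2 (log2 0.92), Serinc3 (0.50), Serinc1 (0.41) and Serinc5 (-0.98). The limma adjusted p of Serinc5 was 0.0029. Those of Serinc2, Serinc3 and Serinc1 were 0.0278, 0.0446 and 0.0239, and exceeded 0.05 in 6, 7 and 5 of the 10 fits that lack 1 array.

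Of 12 genes of the methionine cycle and transsulfuration, 1 rose and 1 fell, against 7.61% and 7.87% of all probesets, with a median of -0.02. The counts were 2 and 2 without both arrays, and 0 to 1 and 0 to 2 in the fits that lack 1 array. The riser, Bhmt, was not above background on any array (limma adjusted p = 0.0222), and Mat2b, a regulatory subunit of methionine adenosyltransferase, fell (log2 -0.45, limma adjusted p = 0.0362, not passing in 9 of the 10 fits that lack 1 array, highest 0.0807). Of 6 genes of proline metabolism beside Aldh18a1, Aldh4a1 of proline breakdown rose 1.74-fold (limma adjusted p = 0.0036), and Pycr1 of proline synthesis had a difference of -0.51 (limma adjusted p = 0.325).

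Serine and folate enzymes are known to be high in dividing cells, and cell cycle genes moved in the same comparison. Of 18 measured, 6 fell and 0 rose, against 7.87% and 7.61% of all probesets, with a median log2 difference of -0.56. Summed levels were 14.2 to 14.8 on the ShBNIP3 arrays and 14.3 to 15.2 on the ShCtrl arrays. They are log2 of the summed linear values, as for the lists below, so the brightest genes weigh most. Here these were Rrm1 and Pcna, with differences of -0.03 and -0.19, neither past the threshold. The count fell to 3 without ShBNIP3 array 7 or 8 or without ShCtrl array 5, and was 5 without both ShBNIP3 array 10 and ShCtrl array 4. Bub1, a mitotic checkpoint kinase among the 6, had a difference of -0.91 (limma adjusted p = 0.0400) and did not pass without ShBNIP3 array 10 (0.0764), without ShCtrl array 4 (0.0624) or without both (0.0978). The mitotic genes Ube2c, Aurkb and Cdk1 had differences of -1.09, -1.02 and -0.97 (limma adjusted p = 0.0141, 0.0138 and 0.0063). The proliferation marker Mki67 had a difference of -1.13 (limma adjusted p = 0.0215, not passing in 5 of the 10 fits that lack 1 array, highest 0.0558, and 0.0612 without both arrays). Within groups, Mki67 had r = 0.51 to the mean pattern of the 9 genes over 10 arrays and 0.92 over the 8. Mki67 was highest on ShBNIP3 array 6 (10.8, others 9.46 to 9.65), where 6 of the 9 genes also had their highest ShBNIP3 value. Apart from Mki67 and Tk1, this r is not given for the cell cycle genes. The part of cell division in the members' differences was not tested.

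Markers of other cell types were also compared, where 7.61% of all probesets were called higher and 7.87% lower. Summed levels of the macrophage, annulus and nucleus pulposus lists are set mostly by their brightest genes: Cd14, Col1a1 with Col1a2, and Acan. Of 9 macrophage and leukocyte markers 3 were called higher, Cd68 (log2 1.50), Cd14 (log2 1.12) and Cd53, and their summed levels were 11.9 to 13.2 in ShBNIP3 and 11.0 to 11.7 in ShCtrl cells. The defining markers Ptprc, Itgam, Csf1r, Aif1, Cd3e, Tyrobp and Cd53 were not above background on any array. All 7 endothelial markers were at background on all arrays, with summed levels of 7.25 to 7.45 in ShBNIP3 and 7.10 to 7.26 in ShCtrl cells. Of 7 annulus and fibroblast markers 3 fell, Thy1 (log2 -0.77), Col1a1 (-0.40) and Col1a2 (-0.37), with summed levels of 19.4 to 19.7 in ShBNIP3 and 19.7 to 19.9 in ShCtrl cells. Col1a2 did not pass in 7 of the 10 fits that lack 1 array, or without both arrays (limma adjusted p = 0.0552). Of 11 nucleus pulposus markers 2 fell, Car3 (log2 -1.29) and Col2a1 (-0.67), and Cdh2 was called higher against ShCtrl arrays that were all at background, with summed levels of 12.2 to 13.8 in ShBNIP3 and 13.4 to 14.5 in ShCtrl cells. Acan had a difference of -0.90 (limma adjusted p = 0.190), and was called lower without ShBNIP3 array 10 (-1.25, 0.0276) and without both arrays (-0.97, 0.0201), where 3 nucleus pulposus markers fell. The part of these markers in the members' differences was not tested.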

How the data were processed

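Total RNA of 10 samples was hybridised with the GeneChip WT Plus kit. The deposited table holds log2 values that the authors made by sst-rma normalization, per the labels. The Transcriptome Analysis Console is named in the submitters' processing notes, and its version and the genome build are not given in the sources used here. Groups were taken from the array titles. The labels' extraction protocol also speaks of mouse disc tissue, which was not used. Of 24834 probesets 1646 controls were left out and 23188 tested, of which 15049 carry 1 symbol in the platform annotation, 0 several and 8139 none. For the 10 genes with more than 1 probeset, none of them a member, the one with the highest mean was used.

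Values were used as deposited in limma 3.58.1 (R 4.3.3; lmFit, eBayes, Benjamini-Hochberg over all probesets, threshold 0.05). A probeset counted as above background where it exceeded the 95th percentile of 23 antigenomic background probesets of the array. Ratios within an array were tested with exact two-sided permutation tests (Python 3.11.15, scipy 1.17.1). The fit was tested on simulated data. For arrays, their number limits the precision. Detection calls, slides and scan dates were not used here, so batch was not tested.

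The members and gene lists (folate cycle, folate carriers, glycine cleavage, serine and glycine carriers, serine-using lipid synthesis, methionine cycle, purine synthesis, proline metabolism, regulators, cell cycle and markers of 4 cell types) were chosen with earlier results of these data known. Of 162 list entries 142 were measured. Named are all members, Bnip3, up to 4 genes per list past the threshold by size of difference, Atf4, Myc, Mthfd2l, Aldh1l1 and the 5 genes most like the members' mean pattern. Genes named besides these were chosen after their values were seen. They are Slc38a2, Tyms, Slc25a32, Sfxn1, Pycr1, Eif2ak4, Bub1, Rrm1, Pcna, Nupr1, Acan and markers at background. Alternatives were quantile normalization, median centring, a trended and robust variance, array weights, 2 filters on dim probesets, a 2-fold minimum, and arrays left out singly or, for ShBNIP3 array 10 and ShCtrl array 4, together.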

Additional observations from a re-analysis of the deposited data

Results flagged for a closer look

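Among 106 groups of 5 arrays (53 named genes), 6 held an array whose gap to its nearest neighbour exceeded 0.71 of the group's range, Dixon's 95% limit. Chance gives about 5% of groups, and the count of 6 is near that share, so the 6 are listed as descriptions only. Phgdh was lowest on ShBNIP3 array 10, with a log2 value of 8.96 against 10.8 to 11.1 on the other ShBNIP3 arrays. Aldh1l2 was highest on ShBNIP3 array 6 (11.7, others 11.4) and lowest on ShCtrl array 4 (10.9, others 12.0 to 12.3). The carrier Slc38a1 was highest on ShBNIP3 array 10 (13.8, others 12.6 to 12.8) and on ShCtrl array 4 (14.5, others 13.9 to 14.0). Mki67 was highest on ShBNIP3 array 6 (10.8, others 9.46 to 9.65). The causes were not tested.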

How the results depend on the processing

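The count of members called lower was 2 with all arrays, 5 with array weights, 5 without ShBNIP3 array 10 and ShCtrl array 4, 4 among probesets above background on at least 5 arrays (17.5% of those called lower), 3 in the brighter 50% of probesets and after quantile normalization, 0 with a 2-fold minimum, and 1 to 5 with 1 array left out. The count of members called higher was 0 in each of these. Over all probesets 3590 were called, 969 with a 2-fold minimum and 2746 to 3960 with 1 array left out. The difference of Psph was -0.00855 to 0.22 with 1 array left out, negative without ShCtrl array 4. The shift of the log ratio of Mthfd1l over Mthfd1 was -0.78 without both arrays (exact p = 0.0571), and that of Aldh1l2 over Aldh1l1 -1.07 to -0.66 with 1 array left out, where 9 of 10 exact p-values were above 0.05; Aldh1l1 was at background, so this shift carries no result. Over the 53 named genes, the other settings left 345 results on their side of the threshold, moved 8 adjusted p-values above it and 10 below it, and turned 0 differences round. With 1 array left out 437 stayed, 87 moved above, 5 moved below and 1 difference (Psph) turned round. The causes were not tested. No paired analysis was possible because the titles number the arrays 1 to 5 and 6 to 10, so that the groups share no number.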
